A study of Homo sapiens with 6 samples.

Results

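The small nucleolar RNA (snoRNA) genes measured in a pair of DLD-1 subclones grown in collagen are described here. Members were the genes whose symbol begins SNORD (C/D box) or SNORA (H/ACA box), taken from rows of the deposited table that carry a single gene symbol. Of 65526 rows with usable values, 240 met that rule and stood for 237 genes, 173 SNORD and 64 SNORA, out of 22376 genes with a row of their own. Where a gene had more than 1 row, the row with the highest mean over the 6 arrays was used, which concerned 3 genes. A further 143 snoRNA genes appear only in rows that join several symbols and were not analysed here.

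Each array measured total RNA, per the labels, of cells subcloned from DLD-1, a long-established line of human colorectal adenocarcinoma. Cultures were kept for 96 h in a 3D gel of type I collagen at 1 mg/ml, with no treatment. The comparison asks how 2 subpopulations differ in that setting: 3 arrays are labelled Δα-Cat and 3 α-Cat, with numbers 1 to 3 in each set. Neither name is spelled out in the labels, which also leave unsaid how the subclones were made, what a replicate number stands for and whether replicates were grown separately. A p-value here therefore reflects spread between arrays alone, which may be technical.

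CTNNA1, the α-catenin gene, read 6.55, 6.52 and 6.41 in Δα-Cat and 7.79, 7.68 and 7.71 in α-Cat on the log2 scale, a difference of -1.23 (SE 0.06, limma adjusted p = 0.00212), and the groups did not overlap. Array medians lay between 4.02 and 4.07. The epithelial genes EPCAM, CDH1, KRT8, KRT18 and KRT19 had levels from 9.61 to 11.98 and VIL1 6.28, while the leukocyte gene PTPRC lay at 2.30 and the endothelial genes PECAM1 and KDR at 3.14 and 2.98. The fibroblast genes COL1A1, COL1A2, PDGFRB and THY1 read 5.06 to 6.15, the leukocyte genes CD3E and ITGAM 4.68 and 4.66, and the endothelial genes VWF and CDH5 5.05 and 4.69. None of these 17 marker genes passed limma's test between the groups, and their lowest adjusted p was 0.274.

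snoRNAs are short nuclear RNAs that sit in complexes with a fixed set of proteins and pair with other RNAs. C/D box snoRNAs, bound by fibrillarin, guide methylation of ribose in ribosomal RNA, and H/ACA box snoRNAs, bound by dyskerin, guide the conversion of uridine to pseudouridine. Most human snoRNAs lie in introns of other genes and are cut out of the spliced intron, so a host gene and its snoRNA can share a transcript yet differ in level. A few, such as U3, act in cleavage of the ribosomal RNA precursor, and some families of C/D genes lie in imprinted clusters that are mainly active in brain.

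Levels differed widely within the class. As a mark for low values, the 95th percentile of 397 rows of olfactory receptor genes was used, a class expected to be silent in epithelial cells, which lay at a log2 level of 4.58 and is called the line below. Of the 237 members, 104 had a mean over 6 arrays above the line: 57 of 173 SNORD genes and 47 of 64 SNORA genes. The median level was 2.64 for SNORD and 6.55 for SNORA genes. Rows differ in their probes, so an order of levels between genes describes the deposited values and not RNA amounts. A level above the line does not by itself show expression. The 4 fibroblast marker genes, 2 of 3 leukocyte genes and 2 of 4 endothelial genes also lay above it.

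The low SNORD median came with the imprinted repeat families. SNORD113 and SNORD114 lie in the cluster with MEG3 and MEG8, and SNORD115 and SNORD116 in the SNHG14 transcript of the Prader-Willi region. None of their 90 measured copies (9, 31, 31 and 19) reached the line, and their median was 2.13. The highest copy, SNORD114-31, had a mean of 4.44. Without them the other 83 SNORD genes had a median of 6.13, near that of the SNORA genes.

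**Figure D1:**
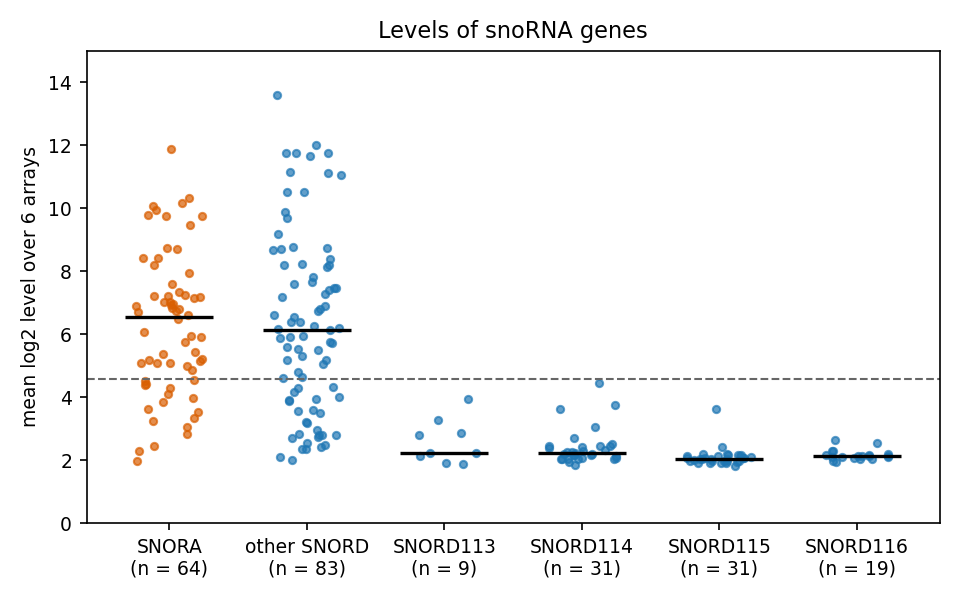
Mean log2 level over 6 arrays for each snoRNA gene, by class, with the 4 imprinted SNORD families apart. Points are genes, short black bars are medians, and the dashed line is the olfactory receptor mark at 4.58; all 90 copies of the 4 families lie under it, with medians from 2.05 to 2.23, while SNORA and other SNORD genes spread from 1.96 up to 13.60.

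At the top of the range stood 15 members with a mean above 10. SNORD13, the U13 RNA, which is transcribed from a gene of its own and has been tied to acetylation of small-subunit ribosomal RNA, read 13.59, 13.63 and 13.44 in Δα-Cat and 13.57, 13.75 and 13.62 in α-Cat. Its arrays spanned a narrow range and the groups overlapped (difference -0.09, SE 0.08, limma adjusted p = 0.801). SNORD3A, a copy of the U3 RNA of precursor cleavage, read 11.85, 12.02 and 11.87 in Δα-Cat and 11.89, 12.56 and 11.82 in α-Cat. Replicate 2 of α-Cat stood above the other 5 arrays, and the groups overlapped (difference -0.18, SE 0.19, limma adjusted p = 0.857). The 5 SNORD3 rows lay between 11.65 and 12.003 and moved together, with a Pearson r over the 6 arrays of at least 0.994 for each pair; SNORD3B-1 and SNORD3B-2 shared all 6 values. These are near-identical copies that probes may not separate, so their values may hold only 1 signal. Each copy is still taken as a member of its own in the counts given here.

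The highest H/ACA rows were SNORA48, SNORA22, SNORA71A, SNORA68 and SNORA23, which guide pseudouridylation of ribosomal RNA. SNORA48 read 11.99, 12.13 and 11.87 in Δα-Cat and 11.60, 12.13 and 11.63 in α-Cat. SNORA22 read 10.17, 10.43 and 10.11 in Δα-Cat and 10.04, 11.04 and 10.07 in α-Cat, SNORA71A 9.996, 10.47 and 10.24 in Δα-Cat and 9.95, 10.58 and 9.75 in α-Cat, and SNORA68 9.91, 10.50 and 10.17 in Δα-Cat and 9.76, 10.53 and 9.50 in α-Cat. In all 4 of these genes replicate 2 was the highest array of its group in both groups. SNORA23 was more variable, at 9.76, 10.83 and 10.22 in Δα-Cat and 8.14, 11.07 and 9.56 in α-Cat: replicate 1 was the lowest and replicate 2 the highest in each group, and the α-Cat arrays were spread widest. None of these 5 passed limma's test between groups, with adjusted p from 0.749 to 0.931.

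Between the subclones, no snoRNA gene passed. Limma called 0 of 237 members at an adjusted p under 0.05, beside 224 of 65526 rows in all (0.342%), and the lowest adjusted p of a member was 0.309. At an unadjusted p under 0.05 there were 18 members, 10 higher and 8 lower in Δα-Cat, beside 9.83% of all rows. Above the line 4 were higher and 2 lower, of 104 members, beside 14.4% of all rows above the line in either direction. The groups did not overlap in 7 members higher and 9 lower in Δα-Cat, beside 8.08% and 7.33% of all rows (15.4% in either direction). Only 2 of these 16 were among the 104 members above the line, beside 21% of all rows above it. With both groups' replicate numbers as a block, limma also called 0 members (0.238% of all rows), and the lowest adjusted p was 0.1005. In that fit 42 members had an unadjusted p under 0.05 (10.9% of all rows). Of these, 33 were higher and 9 lower in Δα-Cat, beside 3897 and 3270 of all rows. Above the line 25 were higher and 3 lower, beside 15.5% of all rows above the line in either direction. As these are whole cultures, less RNA per cell and fewer cells that make the RNA cannot be told apart in any level given here.

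The non-overlapping members above the line were both C/D genes inside long noncoding host transcripts. SNORD104, in SNHG25, guides methylation of large-subunit ribosomal RNA and read 10.59, 11.26 and 10.59 in Δα-Cat and 9.94, 10.56 and 10.24 in α-Cat. The lowest Δα-Cat array lay just above the highest α-Cat array, and the difference was 0.57 (SE 0.22, limma adjusted p = 0.467, 0.1005 with the block). SNORD99, in SNHG12 and also a guide for the large subunit, read 9.12, 9.14 and 9.01 in Δα-Cat and 7.995, 8.97 and 8.45 in α-Cat. The Δα-Cat arrays lay close together and the α-Cat arrays were spread below them, for a difference of 0.62 (SE 0.22, adjusted p = 0.415). SNORD12, in ZFAS1, a snoRNA reported in colorectal cancer, read 6.69, 7.10 and 7.002 in Δα-Cat and 5.67, 6.89 and 6.28 in α-Cat, so its groups overlapped (difference 0.65, SE 0.29, adjusted p = 0.529). SNORA21, in RPL23 and likewise reported in colorectal tumours, read 8.02, 8.57 and 8.35 in Δα-Cat and 8.06, 9.05 and 8.40 in α-Cat, with a difference of -0.19 (SE 0.26, adjusted p = 0.896).

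The other non-overlapping members were under the line, where a level is not shown to exceed background. SNORD92, in WDR43, read 3.06, 4.11 and 3.57 in Δα-Cat and 2.87, 2.67 and 3.05 in α-Cat, and its difference was 0.72 (SE 0.25, adjusted p = 0.401). The remaining higher ones were copies of the imprinted families, SNORD115-3, SNORD114-4, SNORD114-20 and SNORD114-8, at levels near 2 and with differences from 0.12 to 0.18. Those lower in Δα-Cat that the naming rule takes had differences from -0.35 (SNORD115-44) to -0.14 (SNORD115-16). Among them SNORD96B, a guide for ribosomal RNA of the large subunit, had the lowest adjusted p of all members, with 3.08, 3.09 and 3.04 in Δα-Cat and 3.22, 3.33 and 3.23 in α-Cat and a difference of -0.19 (SE 0.06). SNORA35, a brain snoRNA in an intron of the serotonin receptor gene HTR2C, read 3.89, 4.03 and 4.07 in Δα-Cat and 4.15, 4.33 and 4.09 in α-Cat (difference -0.19), with its host at 2.45. SNORD91A read 2.34, 2.62 and 2.23 in Δα-Cat and 2.63, 2.72 and 2.76 in α-Cat (difference -0.31, SE 0.10, adjusted p = 0.385).

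**Figure D2:**
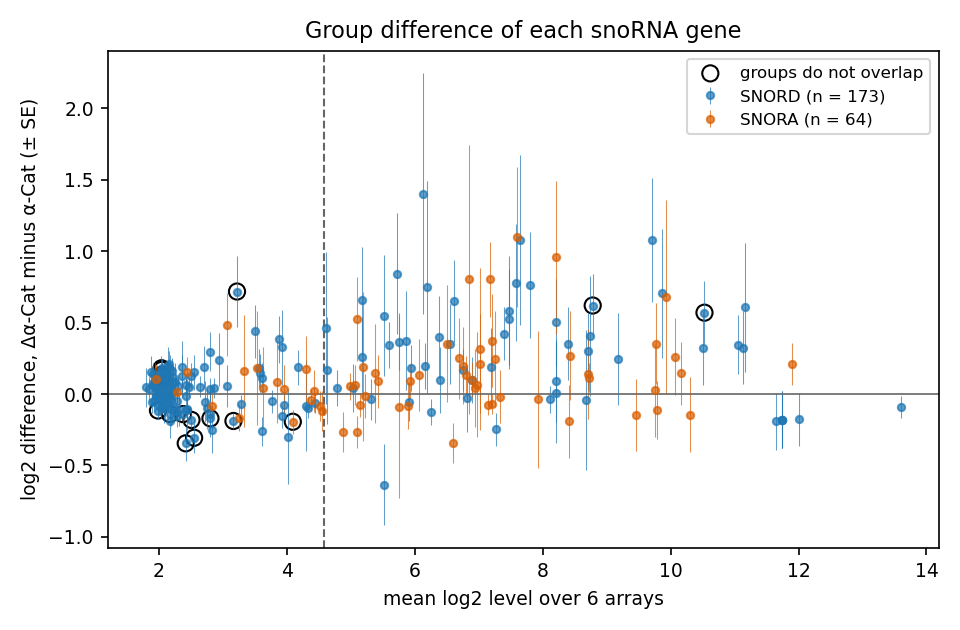
Difference between groups (Δα-Cat minus α-Cat, log2, ± SE of the limma fit, 3 arrays per group) against the mean log2 level of each snoRNA gene, with SNORD in blue and SNORA in orange. Open circles mark the 16 genes whose groups do not overlap, and the dashed line is the olfactory receptor mark. Above it most points lie over 0, with wide errors. Only 2 points there carry a circle, while 21% of all rows above the line do not overlap.

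The largest differences did not pass the test, with or without the replicate block. Values given here are from the fit without it, so their SEs hold the spread between replicate numbers. SNORD63, which the naming rule does not take and which was picked once its values were known, had the largest difference of any member, 1.40 (SE 0.84, limma adjusted p = 0.682). Its arrays read 5.11, 7.81 and 7.57 in Δα-Cat and 4.19, 5.45 and 6.64 in α-Cat, so the groups overlapped and replicate 1 was low in both. SNORA38B and SNORD8, picked in the same way, followed with 1.10 (SE 0.49, adjusted p = 0.533) and 1.08 (SE 0.60, adjusted p = 0.645). SNORD71, next in size, read 9.56, 11.03 and 10.13 in Δα-Cat and 8.42, 9.44 and 9.63 in α-Cat, with a difference of 1.08 (SE 0.43, adjusted p = 0.481).

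As a class, members above the line leaned to Δα-Cat, by an amount that changed with the arrays included. Their median difference was 0.19, with 75 of 104 above 0, beside a median of -0.01 and a share above 0 of 47.6% for all rows above the line. The mean level over the 104 genes was 7.39, 7.95 and 7.68 in Δα-Cat and 7.01, 7.81 and 7.49 in α-Cat, so the groups overlapped. Without replicate 1 of α-Cat, the lowest array, the median difference was 0.00 with 51 of 104 above 0. Without replicate 2 of Δα-Cat it was 0.06, without replicate 1 of Δα-Cat 0.30, and without replicate 2 of α-Cat 0.40 with 94 of 104 above 0. With both arrays of a number left out, an alternative chosen after seeing the data, it was 0.10 with 71 of 104 above 0 without number 1, 0.21 with 85 without number 2 and 0.18 with 66 without number 3. By replicate number, the median difference was 0.26 for number 1, -0.04 for number 2 and 0.21 for number 3. The difference was above 0 in all 3 numbers for 32 of 104 genes (19.5% of all rows above the line) and below 0 in all 3 for 7 (19.8%).

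C/D and H/ACA genes above the line both had a median difference above 0 with overlapping groups. The mean over 57 SNORD genes was 7.67, 8.22 and 7.89 in Δα-Cat and 7.18, 7.96 and 7.74 in α-Cat. Over 47 SNORA genes it was 7.06, 7.62 and 7.43 in Δα-Cat and 6.81, 7.64 and 7.19 in α-Cat. In both classes replicate 1 of α-Cat was the lowest array. The median difference was 0.32 for SNORD, with 43 of 57 above 0, and 0.11 for SNORA, with 32 of 47 above 0. Without replicate 1 of α-Cat these were 0.08 with 35 of 57, and -0.06 with 16 of 47. Without both arrays of number 1 they were 0.12 with 41 of 57, and 0.07 with 30 of 47. The gap of the class means, SNORD minus SNORA, was 0.56 ± 0.08 in Δα-Cat and 0.42 ± 0.13 in α-Cat (SD, n = 3 each). The single arrays read 0.61, 0.60 and 0.46 against 0.37, 0.32 and 0.56, and the groups overlapped. Over all members the gap was -2.09 ± 0.14 and -2.07 ± 0.19, and without the imprinted families 0.07 ± 0.07 and -0.02 ± 0.11.

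**Figure D3:**
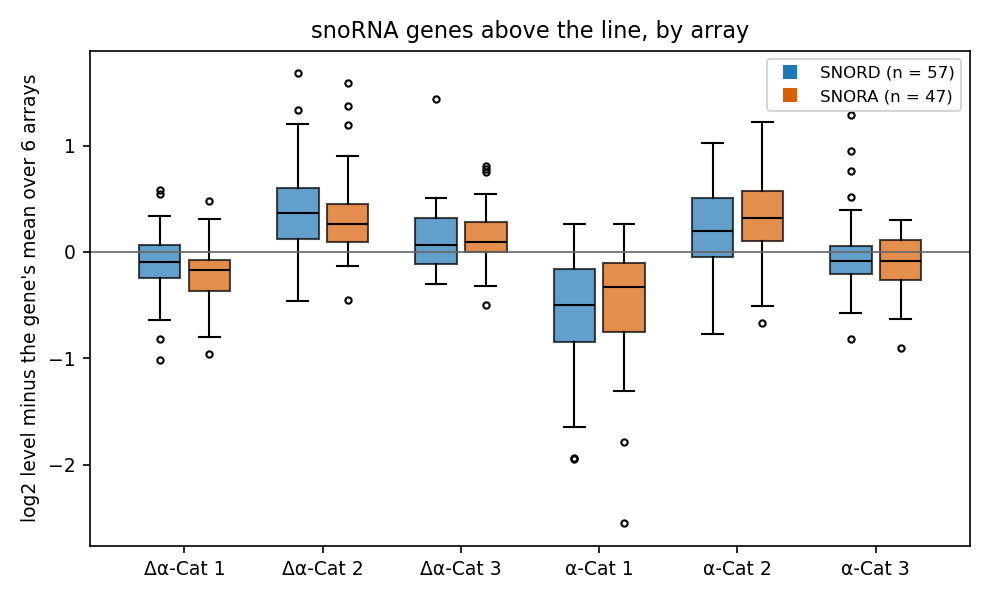
Log2 level minus the gene's own mean over 6 arrays, for the 57 SNORD and 47 SNORA genes above the line, by array. Boxes span the quartiles with the median in black, and circles are genes beyond the whiskers; in both classes replicate 1 of α-Cat lies lowest, and replicate 2 is the highest array of its group.

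Replicate number gave no call in the test over all rows, but many members had a low unadjusted p. Limma's F test of replicate number, in a model with group and number, called 0 members and 0 rows in all (0%) at an adjusted p under 0.05, but 86 of 237 members had an unadjusted p under 0.05, beside 8.26% of all rows. In the same model the group had 42 such members, beside 10.9% of all rows. Those for replicate number were 42 of 64 SNORA and 44 of 173 SNORD genes. Above the line they were 67 of 104, 35 of 47 SNORA and 32 of 57 SNORD, beside 8.39% of all rows above the line. In the 4 imprinted families they were 4 of 90. At an adjusted p under 0.1 there were 4 members, all SNORA, beside 0.137% of all rows. When only single-symbol rows were tested, 5 members were called (0.216% of those rows, with 106 members and 9.71% of those rows at an unadjusted p under 0.05), SNORA50A, SNORA53, SNORA75, SNORA14A and SNORA72, with adjusted p from 0.0183 to 0.0251. Testing only rows above the line, 2 were called (0.457%), SNORA50A and SNORA14A. With each array left out in turn, 77 to 109 members had an unadjusted p under 0.05, beside 7.36% to 9.28% of all rows. The arrays of a number share whatever that number stands for, and genes of the class are not independent.

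The direction was shared. Above the line, the mean of the number 1 arrays was below that of the number 2 arrays in 99 of 104 members, beside 45.9% of all rows above the line. It was more than 1 log2 unit below in 22, beside 0.29%. The median of number 1 minus number 2 was -0.60 and that of number 1 minus number 3 was -0.28, beside 0.01 and 0.00 for all rows above the line. Replicate 1 was the lowest array in both groups for 53 members (12.6% of all rows above the line) and replicate 2 the highest in both for 56 (12.1%). Replicate 1 of α-Cat was the lowest of all 6 arrays in 62 members (15.8%). Replicate 2 was the highest of all 6 in 46 members in α-Cat (18.7%) and in 43 in Δα-Cat (14.1%). The spread within a group was wide: the median SD was 0.29 in Δα-Cat and 0.45 in α-Cat, beside 0.08 and 0.07 for all rows above the line, and it was larger in α-Cat for 71 of 104 (44.1%).

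Among the 8 members with the largest F, 7 were H/ACA. SNORA50A, in CNOT1 and a guide for small-subunit ribosomal RNA, had the largest F (117, adjusted p = 0.097), with 6.001, 7.23 and 6.79 in Δα-Cat and 5.54, 6.87 and 6.56 in α-Cat. The number 2 arrays were 2.43-fold above the number 1 arrays. SNORA14A, in POR, also a guide for the small subunit, read 4.75, 5.80 and 5.79 in Δα-Cat and 4.73, 5.70 and 5.48 in α-Cat (F 66.5, adjusted p = 0.097). Its homolog SNORA14B read 6.17, 7.43 and 7.40 in Δα-Cat and 6.44, 7.19 and 7.18 in α-Cat (adjusted p = 0.189). In both, the number 1 arrays were low and numbers 2 and 3 lay closer to each other. SNORA38, in PRRC2A, read 4.79, 6.32 and 6.02 in Δα-Cat and 4.54, 6.98 and 5.89 in α-Cat, a 3.96-fold step from number 1 to number 2 (adjusted p = 0.148). SNORD14E, a U14 gene in HSPA8, from a family that in yeast serves both methylation and precursor cleavage, read 6.15, 7.14 and 6.89 in Δα-Cat and 6.005, 6.75 and 6.38 in α-Cat (adjusted p = 0.182). It had the lowest number 1 and the highest number 2 values in each group.

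The other 3 lay under the line in mean level. SNORA53, in SLC25A3, read 2.97, 4.17 and 3.72 in Δα-Cat and 2.77, 4.13 and 3.41 in α-Cat, SNORA75, the U23 RNA in NCL, read 2.65, 3.77 and 3.82 in Δα-Cat and 2.59, 3.38 and 3.78 in α-Cat, and SNORA72, in RPL30, read 3.10, 3.98 and 3.90 in Δα-Cat and 3.12, 3.81 and 3.91 in α-Cat. In each of them number 1 was lowest in both groups, and number 1 minus number 2 was -1.28, -0.95 and -0.78 on the log2 scale. SNORA20, picked once its values were known, had the widest step of any member, with 6.07, 8.04 and 7.63 in Δα-Cat and 4.29, 7.89 and 7.15 in α-Cat; its number 2 arrays were 6.88-fold above number 1.

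**Figure D4:**
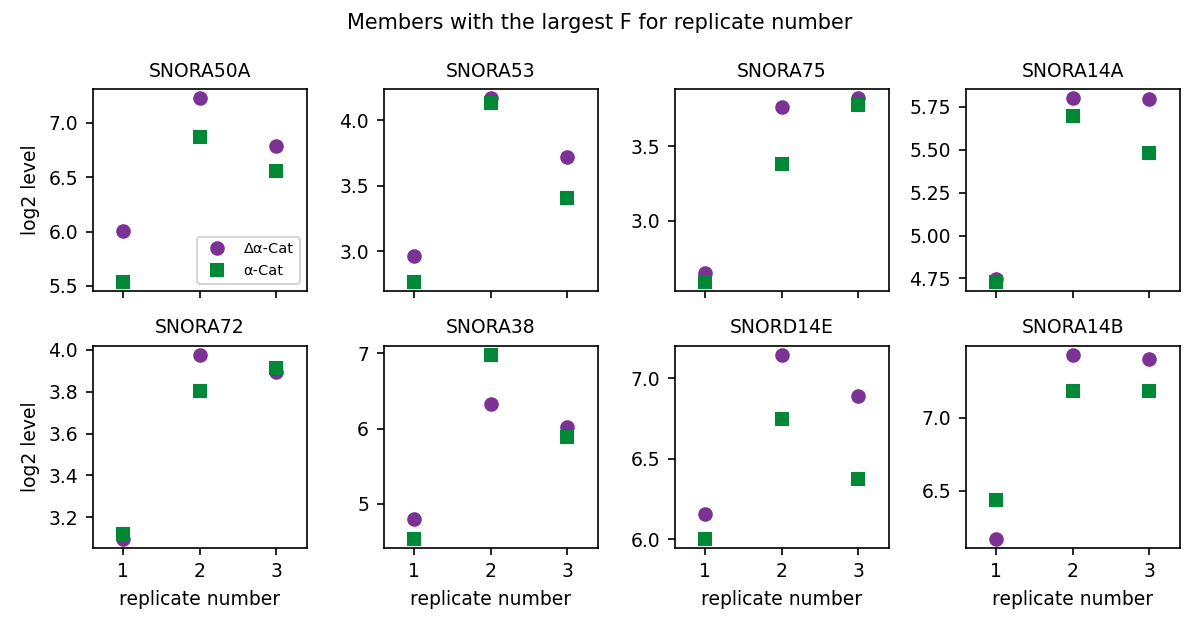
Log2 level by replicate number for the 8 members with the largest F, with circles for the Δα-Cat array and squares for the α-Cat array of each number; the vertical scale differs between panels. Number 1 is the lowest array of both groups in all 8 panels.

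Deviations of same-numbered arrays of the 2 groups were correlated gene by gene over snoRNA genes, though hardly for number 2 above the line. After group means were removed, the Pearson correlation over the 237 genes was 0.578, 0.317 and 0.277 for numbers 1, 2 and 3, beside 0.219, 0.214 and 0.128 over all rows. The match was not exclusive, since replicate 2 of Δα-Cat correlated at 0.343 with replicate 3 of α-Cat. Above the line the same-numbered values were 0.495, 0.085 and 0.296, beside 0.365, 0.334 and 0.238 for all rows above the line, so number 2 was lower and numbers 1 and 3 were higher over the snoRNA genes. There, replicate 2 of Δα-Cat correlated at 0.420 with replicate 3 of α-Cat, more than with replicate 2 of α-Cat. These are correlations across genes of the same arrays and describe those arrays only. They leave out a shift shared by the genes of an array. Above the line the median residual of number 2 was above 0 in both groups, 0.23 in Δα-Cat and 0.34 in α-Cat.

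The hosts of the snoRNA genes gave no call between groups. In the RefSeq table of GRCh38.p14, 214 members lie inside 1 longer gene, 15 inside several and 8 inside none, among them SNORD13 and the SNORD3 copies. A host with a row of its own was found for 47 members above the line, in 42 hosts, of which 39 code for protein. Limma called 0 of these hosts between groups, beside 0.342% of all rows. The lowest adjusted p was 0.0517, for CNOT1, a scaffold of the deadenylase complex that holds SNORA50A, at 9.14 ± 0.04 in Δα-Cat and 8.62 ± 0.12 in α-Cat (SD, n = 3 each). Its difference of 0.52 (SE 0.07) stood beside 0.35 (SE 0.41) for SNORA50A. Both SEs are from the fit without the replicate block, so that of SNORA50A holds its spread between replicate numbers. SNORA50A read higher in Δα-Cat than in α-Cat at each replicate number. Over the 47 pairs the median difference between groups was 0.24 for the snoRNA and -0.01 for the host. Across these pairs, some of which share a host, the differences of snoRNA and host correlated at r = 0.105 (Spearman 0.092, n = 47) and the levels at r = 0.094 (Spearman 0.061).

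The step between replicate numbers was smaller in the hosts. The median of number 1 minus number 2 was -0.76 for the 47 snoRNAs and 0.07 for their hosts, and 45 of the 47 moved more than their host in size. SNORA38 stepped by -1.98 while PRRC2A stepped by -0.12. SNORA23 stepped by -2.000 while IPO7, a nuclear import receptor, stepped by 0.18. Of the hosts, 4 had an unadjusted p under 0.05 in the F test, beside 8.26% of all rows.

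**Figure D5:**
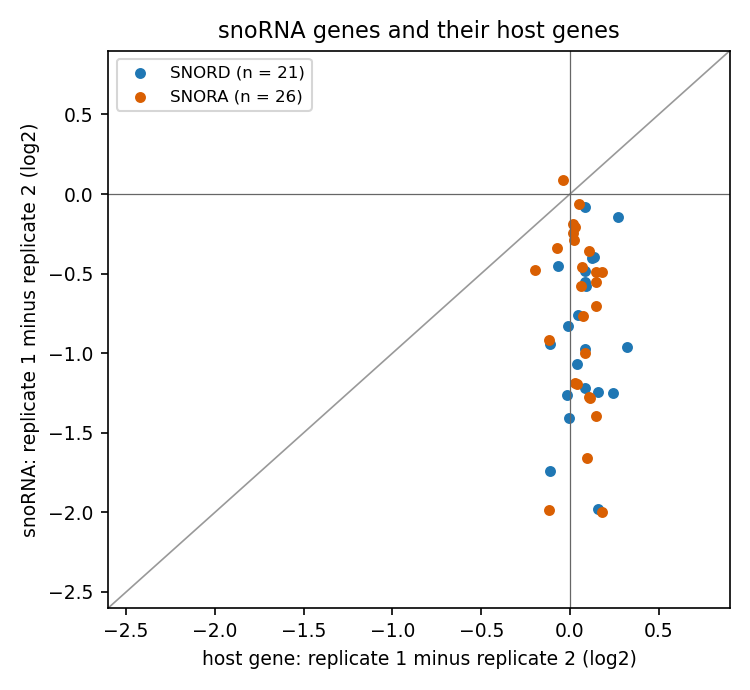
Mean of the number 1 arrays minus mean of the number 2 arrays (log2) for 47 snoRNA genes above the line, against the same value for the host gene that contains each (21 SNORD in blue, 26 SNORA in orange; a host with several snoRNAs appears once for each). The oblique line marks equal steps; hosts lie near 0 while the snoRNAs reach down to -2.00.

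Other classes of small RNA genes differed in the step, and microRNA genes did not show it. Of 84 RNU rows above the line, genes for small nuclear RNAs and their copies taken by symbol, 70 had an unadjusted p under 0.05 for replicate number. Their number 1 minus number 2 had a median of -0.80. For 14 SCARNA genes above the line, which guide changes in small nuclear RNA in Cajal bodies, these were 4 and -0.32, and for 363 microRNA genes above the line 24 and 0.01, beside 8.39% of all rows above the line. The 56 RNY rows were Y RNA genes and, for the most part, copies whose symbols mark them as pseudogenes, and 10 lay above the line. Over all 56, 18 had such a p, beside 8.26% of all rows, and number 1 minus number 2 had a median of -0.19. Whether these classes share a source of the step with the snoRNA genes was not tested. Between the groups, the difference was above 0 in 54 of 84 RNU rows above the line, beside 47.6% of all rows above it. The same held for 2 of 14 SCARNA genes and 146 of 363 microRNA genes above the line. Median differences of these 3 sets were 0.09, -0.17 and -0.02. Over all 56 RNY rows, 40 differences were above 0, beside 50.5% of all rows, with a median of 0.05. A lean to Δα-Cat was thus seen in RNU and RNY rows as well as in snoRNA genes.

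The proteins of the snoRNA complexes gave no call. Of the C/D core, FBL, the methyltransferase fibrillarin, had a difference of -0.23 (SE 0.10), the scaffold NOP58 of -0.29 (SE 0.12) and SNU13 of 0.04 (SE 0.06). Of the H/ACA core, GAR1, NHP2 and NOP10 had -0.14, -0.07 and -0.11. NOP56 and DKC1 have no row of their own. Among 13 assembly factors 0 passed limma's test and 5 had an unadjusted p under 0.05, all lower, beside 14.4% of all rows above the line, and 3 of the 13 differences were above 0, beside 47.6%. The helicase genes RUVBL1 and RUVBL2, which act in assembly of both classes, had -0.33 (SE 0.06, adjusted p = 0.0952) and -0.38 (SE 0.07, adjusted p = 0.125).

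Of 14 genes of the U3 complex of precursor processing 0 passed limma's test. An unadjusted p under 0.05 was found for 2, a share near the 14.4% of all rows above the line. These were IMP4 at -0.23 (adjusted p = 0.336) and NOP14 at -0.20 (adjusted p = 0.357). Differences were above 0 in 2 of the 14, beside 47.6% of all rows above the line. They were below 0 in all 3 same-numbered pairs in 7, beside 19.8%. None of 12 genes of small RNA trimming and decay passed, with 0 at an unadjusted p under 0.05, beside the same 14.4%. None of 6 Cajal body and telomerase genes passed, with 1 higher and 1 lower at an unadjusted p under 0.05, beside 9.83% of all rows. The median of number 1 minus number 2 in these lists ran from 0.02 (trimming and decay) to 0.25 (C/D core), opposite in sign to that of the snoRNA genes.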

How the data were processed

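The authors used RMA in Affymetrix Expression Console, per the submitters' processing notes, with versions and settings not given in the sources used here. RMA corrects background, normalizes arrays by quantiles and summarises probes, so a change shared by most rows would be removed. The deposited table is handled as a score column because 4987 of its 70513 rows lack decimal points and reach 999; these were left out, with no snoRNA gene lost. The other rows, between 1.26 and 14.24, were taken as log2 values of the deposited table, though the scale is not stated. A second table was not used: its 6 per-sample columns match no sample label. Array data carry no read depth, and the number of arrays limits precision.

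Differences are Δα-Cat minus α-Cat, fitted with limma 3.58.1 in R 4.3.3 (lmFit, eBayes) over all 65526 rows, with Benjamini-Hochberg adjustment over all of them and a call at an adjusted p under 0.05. Replicate number was tested with an F test in a model with group and number. After group means were removed, same-numbered arrays correlated at 0.219, 0.214 and 0.128 over all rows. The numbers were therefore taken to pair the arrays, from the data and not from the labels; the block gave no change in any call of a member. Class means, gaps and medians carry no test. Tables were joined with Python 3.11.15, numpy 2.4.6 and pandas 2.3.3, and plots made with matplotlib 3.10.9. The fits were tested on simulated data whose noise was independent between rows and arrays, so correlation between genes was not covered.

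The members and gene lists were chosen with earlier results of these data known. Named genes were called members, up to 8 per direction whose groups did not overlap, the 5 highest of each class, the 8 with the largest F, and 19 fixed names, of which 4 have a row of their own. Hosts were taken from containment in the RefSeq gene table of GRCh38.p14, which gives no strand. Its symbols matched all 237 members. Alternatives were the replicate block, trended robust eBayes, cyclic loess, median centring, single-symbol rows, rows above the line, array weights, averaged rows, leaving out the imprinted families, and leaving out each array.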

Additional observations from a re-analysis of the deposited data

How the results depend on the processing

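Limma called 0 snoRNA genes between the groups under each of 19 settings run, with 6 to 42 members at an unadjusted p under 0.05, the highest count being with the replicate block (42, with 0 called). For named genes, 579 values under alternatives included 0 with an adjusted p under 0.05 (lowest 0.1005) and 37 with another sign. The count of members called for replicate number was 0, and 5 with single-symbol rows (0.216% of rows tested called), 2 with rows above the line (0.457%), and 0 to 11 when each array was left out (1 without replicate 2 of α-Cat, beside 0.00153% of all rows, and 11 without replicate 3 of α-Cat, beside 0.316%). In alternatives chosen after seeing the data, which leave out both arrays of a number, it was 0 to 17: 0 without number 1, 1 without number 2 (0.00153% of all rows) and 17 without number 3 (0.371%). Fewer arrays also leave fewer degrees of freedom, and the cause of these changes was not tested. The median difference of SNORD genes was 0.05, and 0.32 above the line and 0.19 without the imprinted families. That of SNORA genes was 0.09, and -0.08 without replicate 1 of α-Cat and 0.22 without replicate 2 of α-Cat. SNORD minus SNORA level was -2.08, and 0.49 above the line and 0.0257 without the imprinted families. Those alternatives drop the dim SNORD copies by construction. The smallest same-number residual correlation over snoRNA genes was 0.277, and 0.0848 above the line, where the cause was not tested. With 3 arrays per group, small differences in genes of wide spread were not detectable.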
